A study of Mus musculus with 6 samples.

Results

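The genes described here encode components, inhibitors and direct targets of mTORC1, the protein kinase complex that couples cell growth to nutrient supply. They were taken as a list of 10 named genes: *Mtor*, *Rptor*, *Deptor*, *Tsc1*, *Tsc2*, *Ddit4*, *Sesn3*, *Eif4ebp1*, *Eif4ebp2* and *Rps6kb1*. The list was chosen with earlier results of these data known. All 10 were among the 54838 genes of the deposited count table, and 10 of 10 were kept by the filter on low counts, which left 11092 genes for testing. The levels are from RNA-seq of I1DN cells, a murine AML on a C57BL/6 background that carries IDH1R132H, DNMT3AR882H and NrasG12D and was made by transducing hematopoietic stem and progenitor cells of fetal liver. Both groups carried these 3 alleles. The leukemia was already established, and thawed cells of a moribund mouse were transplanted. The mice are thus replicate recipients, and whether they shared a donor is not given in the sources used here. The recipients were sub-lethally irradiated Ptprca mice. They received either vehicle or AG636, an inhibitor of the pyrimidine synthesis enzyme DHODH, given orally b.i.d. at 100 mg/kg. Each group had 3 mice, whose ages are not given in the sources used here. The duration of treatment was given as 1 day in one place and 4 days in another. Leukemic cells were sorted from bone marrow and spleen as cKit-positive cells with little or no CD11b, and the labels do not say which organ contributed to which library.

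mTORC1 contains the kinase mTOR and the scaffold Raptor, encoded by *Rptor*, which brings substrates to the kinase. It is switched on at the lysosome when amino acids are sensed through the Rag GTPases and when growth factor signals relieve the TSC1-TSC2 complex of its hold on the GTPase Rheb. When active it phosphorylates the 4E-BP proteins, which otherwise block the cap-binding factor eIF4E, and the S6 kinases, and so promotes protein synthesis. REDD1, encoded by *Ddit4*, and the sestrins restrain it under stress, and in blood cells this pathway is known for its part in the growth of myeloid leukemia and in the quiescence of stem cells.

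Totals ranged from 4634963 to 7906589 counts per library, so that 3 counts corresponded to between 0.392 and 0.637 CPM (counts scaled to the library size after TMM scaling), a floor that covers counting error only. Replicates of a group differed by more than sampling noise in each of their pairs, with a chi-square per degree of freedom between 6.76 and 16.0. *Kit*, the receptor on which cells were sorted, was detected in each library, from 31.8 to 43.1 CPM with vehicle and from 37.3 to 46.3 CPM with AG636. Markers of late neutrophils differed between the groups: 7 of 9 were upregulated and 0 were downregulated, and their summed level was 1036 to 2367 CPM with vehicle and 2888 to 5888 CPM with AG636. Erythroid markers had 0 of 8 upregulated and 3 downregulated, with sums of 1739 to 4903 CPM and 1954 to 3290 CPM. Of 7 markers of immature progenitors 5 were tested and 2 were upregulated, 1 of 8 monocyte markers and 2 of 4 platelet markers tested were upregulated, and none of the 3 B-cell markers and the 1 T-cell or NK-cell marker tested passed the threshold. For comparison, 10.3% of all genes tested were upregulated and 11.0% were downregulated. None of the markers was at 0 counts over all libraries, although *Hoxa9*, a progenitor marker, was at 0 in 4 of 6. The part of these cells in the results below was not tested, and in such bulk libraries fewer cells of a type and less RNA per cell cannot be told apart.

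With AG636, 4 of the 10 genes passed the threshold for a change, and of these only *Ddit4* and *Sesn3* did so under all 16 alternatives run. The inhibitors *Ddit4*, *Sesn3* and *Deptor* were upregulated, the translation repressor *Eif4ebp1* was downregulated, and *Mtor*, *Rptor*, *Tsc1*, *Tsc2*, *Eif4ebp2* and *Rps6kb1* did not pass the threshold (adjusted p under 0.05 by the quasi-likelihood, or QL, test of edgeR, with Benjamini-Hochberg, or BH, adjustment over 11092 genes). Among all genes tested, 10.3% were upregulated and 11.0% were downregulated, so the 1 gene of 10 that was downregulated made up a share near that of all genes. Scaling by library size alone turned 1146 upregulated and 1222 downregulated genes into 1483 and 913 over all genes, and left 3 and 1 among the 10. The CPM of the 2 groups did not overlap for 6 of the 10 genes, 3 higher and 3 lower with AG636, against 20.5% of all genes tested higher and 20.6% lower, or 41.1% in either direction. The median log2 fold change of the 10 genes was -0.07, and that of all genes tested was 0.03. The QL test sets the difference between groups against the variation between libraries of a group, estimated with help from all genes tested. With 3 mice per group, the smallest p of an exact two-sided permutation test is 0.1.

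**Figure D1:**
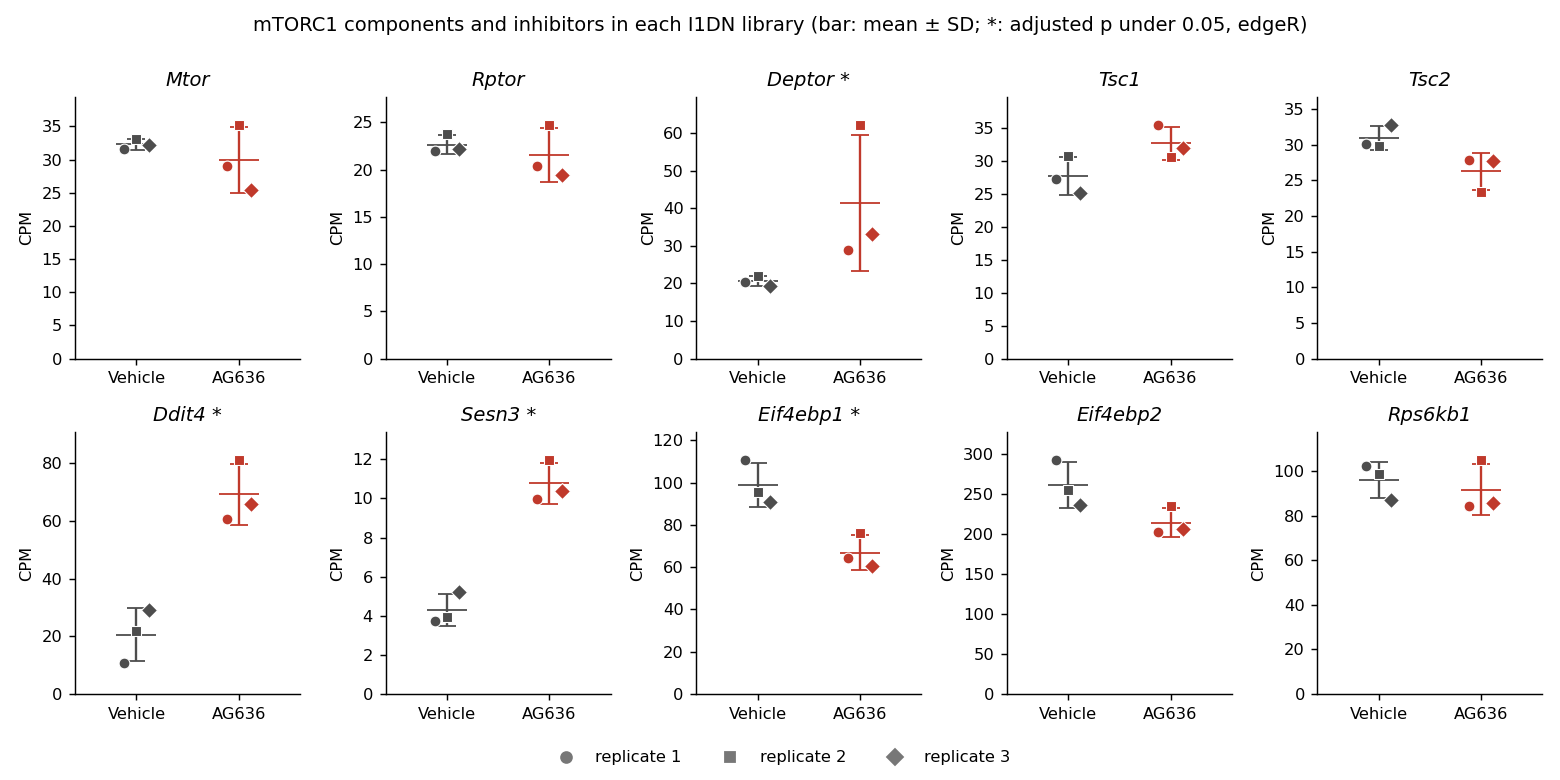
Level of each of the 10 genes in CPM (y axis, from 0) in the 3 vehicle (grey) and 3 AG636 (red) libraries, with mean ± SD as bars and a symbol for each replicate number. The groups of *Ddit4* and *Sesn3* lie apart, with the lowest AG636 library at 60.5 and 9.98 CPM and the highest vehicle library at 29.0 and 5.22 CPM.

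Of the inhibitors that respond to stress, *Ddit4* had the largest increase of the 10 genes. Its product, REDD1, is induced by hypoxia, DNA damage, glucocorticoids and energy stress and acts on mTORC1 through TSC1-TSC2. *Ddit4* (ENSMUSG00000020108) lies on the minus strand of chromosome 10 from 59949669 to 59951834 of mm10. It had 10.9, 21.8 and 29.0 CPM in vehicle replicates 1 to 3 and 60.5, 81.0 and 65.9 CPM in AG636 replicates 1 to 3. Each AG636 library was above each vehicle library, and vehicle replicate 1 was the lowest of all. The mean rose from 20.6 ± 9.15 to 69.2 ± 10.6 CPM (SD, n = 3), a log2 fold change of 1.75 (standard error 0.29, 3.37-fold, adjusted p = 0.00521 by edgeR's QL test with BH adjustment). By size of increase it ranked 91 of the 11092 genes tested, above 99.2% of them. It was called under all 16 alternatives run, with log2 fold changes from 1.44 to 2.03.

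*Sesn3* followed among the stress inhibitors. It encodes sestrin 3, a target of FOXO transcription factors, and sestrins restrain mTORC1 through the amino acid sensing branch and AMPK. *Sesn3* (ENSMUSG00000032009) lies on the plus strand of chromosome 9 from 14275067 to 14333101. It was the least abundant in counts of the 10 genes, with 21, 30 and 25 counts in vehicle replicates 1 to 3 and 47, 58 and 55 counts in AG636 replicates 1 to 3. These corresponded to 3.74, 3.92 and 5.22 CPM with vehicle and 9.98, 11.96 and 10.4 CPM with AG636. The lowest AG636 library was above the highest vehicle library, and the spread within either group was small beside the gap between them. The mean rose from 4.30 ± 0.807 to 10.8 ± 1.05 CPM (SD, n = 3), a log2 fold change of 1.33 (standard error 0.26, 2.52-fold, adjusted p = 0.00899 by edgeR's QL test with BH adjustment). It ranked 274 by increase, above 97.5% of the genes tested, and was called under all 16 alternatives, with log2 fold changes from 1.23 to 1.46.

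The sequences before the starts of *Ddit4* and *Sesn3* are shown because these 2 genes had the largest increases of the set and have different known regulators. They are from RefSeq's promoter table (GRCm38.p6), in which 8 of the 10 genes had an entry. Each was cut before any annotated transcript start that fell inside it. Capitals mark a match to ACGTG, a form of the core bound by hypoxia-inducible factors, and other forms of it were not searched. The *Ddit4* window is chr10:59951835-59952020 on the minus strand.
Ddit4: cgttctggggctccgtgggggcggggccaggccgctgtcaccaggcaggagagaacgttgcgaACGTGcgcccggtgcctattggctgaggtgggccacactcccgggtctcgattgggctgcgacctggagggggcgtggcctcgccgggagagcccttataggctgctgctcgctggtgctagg
The *Sesn3* window is chr9:14276051-14276300 on the plus strand, which is intronic to longer transcripts of the gene in GENCODE's annotation.
Sesn3: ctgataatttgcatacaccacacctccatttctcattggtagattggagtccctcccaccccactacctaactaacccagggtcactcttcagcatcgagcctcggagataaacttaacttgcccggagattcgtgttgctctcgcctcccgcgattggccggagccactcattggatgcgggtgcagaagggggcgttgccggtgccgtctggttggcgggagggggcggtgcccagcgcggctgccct
Over the 250 bases before the RefSeq start, 6 motifs were searched on both strands: ACGTG, the E-box CACGTG, which contains ACGTG, the FOXO element GTAAACA, the ATF4 composite site TGATGNAA, the full glucocorticoid response element and the YY1 element AANATGGC. *Ddit4* held ACGTG from position -187, *Rptor* from -34 and *Eif4ebp2*, on the other strand, from -182. The other 5 windows, that of *Sesn3* included, held none of the 6. Among 32851 promoters of the same length, 16.6% held ACGTG, 6.02% the E-box, 3.17% the FOXO element, 3.45% the ATF4 site, 0.39% the glucocorticoid element and 3.91% the YY1 element. The window of *Ddit4* had a GC content of 70.0% and that of *Sesn3* 59.6%, against a median of 52.4% over all promoters. These matches describe the letters in these windows only.

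*Deptor*, an inhibitory subunit that binds mTOR itself in both mTORC1 and mTORC2, was also upregulated. *Deptor* (ENSMUSG00000022419) lies on the plus strand of chromosome 15 from 55112317 to 55259271. It had 20.5, 21.97 and 19.4 CPM in the vehicle libraries and 28.9, 62.3 and 33.2 CPM in the AG636 libraries. The vehicle libraries were close together, the AG636 libraries were all above them, and AG636 replicate 2 was far above the other 2. The mean rose from 20.6 ± 1.28 to 41.5 ± 18.2 CPM (SD, n = 3), a log2 fold change of 1.002 (standard error 0.27, 2.003-fold, adjusted p = 0.0283 by edgeR's QL test with BH adjustment). Without AG636 replicate 2 the log2 fold change was 0.59 (adjusted p = 0.0470, edgeR's QL test with BH adjustment). Without vehicle replicate 1, 2 or 3 the call was lost (adjusted p = 0.0642, 0.0769 and 0.0651, edgeR's QL test with BH adjustment).

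The kinase and its scaffold did not pass the threshold. *Mtor*, on the plus strand of chromosome 4 from 148448611 to 148557683, had 31.6, 33.1 and 32.2 CPM with vehicle and 29.1, 35.3 and 25.5 CPM with AG636. The AG636 libraries lay on both sides of the vehicle libraries. The means were 32.3 ± 0.772 and 29.9 ± 4.94 CPM (SD, n = 3), a log2 fold change of -0.11 with a 95% confidence interval from -0.49 to 0.27 (adjusted p = 0.671, edgeR's QL test with BH adjustment). *Rptor*, on the plus strand of chromosome 11 from 119602905 to 119899576, had 21.9, 23.8 and 22.1 CPM with vehicle and 20.4, 24.7 and 19.4 CPM with AG636. Its groups overlapped in the same way, with AG636 replicate 2 the highest of the 6. The log2 fold change was -0.07, with an interval from -0.46 to 0.31 (adjusted p = 0.785, edgeR's QL test with BH adjustment). These intervals leave room for log2 fold changes down to -0.49 in *Mtor* and -0.46 in *Rptor*, and up to 0.27 and 0.31. Equal levels in the groups were thus not shown.

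The TSC complex, the GTPase-activating complex that keeps Rheb inactive, also did not pass the threshold in either gene. *Tsc1*, on the plus strand of chromosome 2 from 28641228 to 28691167, had 27.3, 30.7 and 25.1 CPM with vehicle and 35.5, 30.5 and 31.9 CPM with AG636. Vehicle replicate 2 lay just above AG636 replicate 2, so the groups overlapped. The log2 fold change was 0.23, with a 95% confidence interval from -0.13 to 0.59 (adjusted p = 0.324, edgeR's QL test with BH adjustment). *Tsc2*, on the minus strand of chromosome 17 from 24595816 to 24632630, had 30.1, 29.8 and 32.8 CPM with vehicle and 27.8, 23.3 and 27.7 CPM with AG636. All AG636 libraries were below all vehicle libraries (exact two-sided permutation p = 0.1). The log2 fold change was -0.23, with an interval from -0.59 to 0.12 (adjusted p = 0.320, edgeR's QL test with BH adjustment). At its end *Tsc2* shares 693 exonic bases with *Pkd1* on the opposite strand, and whether counting used strand is not given in the sources used here. *Pkd1* had 672 counts in total against 945 for *Tsc2*, and a log2 fold change of 0.01 (adjusted p = 0.979, edgeR's QL test with BH adjustment).

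**Figure D2:**
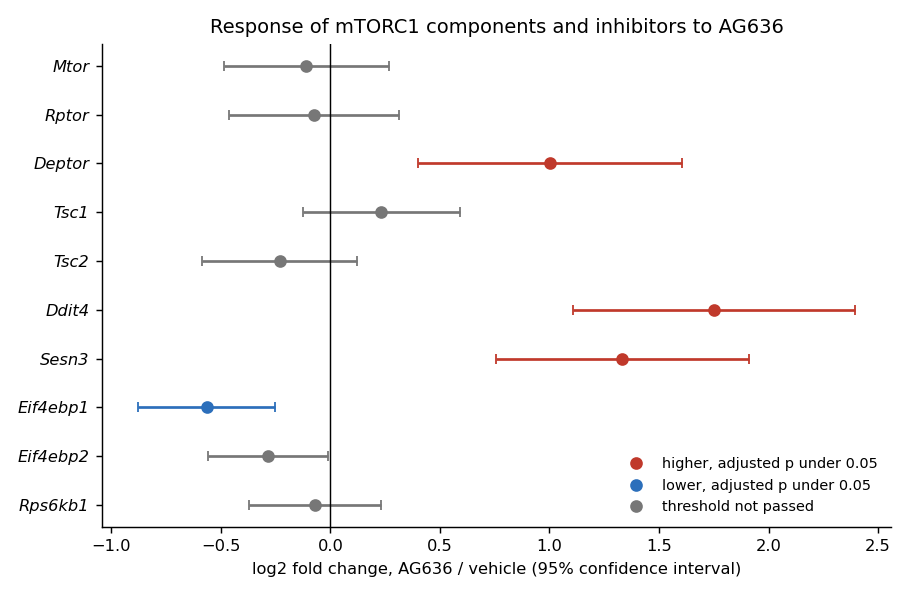
Log2 fold change of AG636 over vehicle (x axis) for the 10 genes with 95% confidence intervals from edgeR's quasi-likelihood test, 3 mice per group. The intervals of *Ddit4*, *Sesn3* and *Deptor* lie above 0 and begin at 1.11, 0.76 and 0.40, that of *Eif4ebp1* ends at -0.25, and that of *Eif4ebp2* ends just below 0.

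Of the direct targets, *Eif4ebp1* was downregulated. It encodes 4E-BP1, which in its unphosphorylated form binds eIF4E and blocks cap-dependent translation. *Eif4ebp1* (ENSMUSG00000031490) lies on the plus strand of chromosome 8 from 27260329 to 27276674. It had 110.72, 95.5 and 90.9 CPM with vehicle and 64.4, 76.1 and 60.4 CPM with AG636, so that each AG636 library was below each vehicle library. The mean fell from 99.0 ± 10.4 to 66.95 ± 8.16 CPM (SD, n = 3), a log2 fold change of -0.57 (standard error 0.14, 1.48-fold lower, adjusted p = 0.0213 by edgeR's QL test with BH adjustment). The call was lost without vehicle replicate 1 or 2 or AG636 replicate 1 or 3, with adjusted p of 0.0579, 0.0511, 0.0729 and 0.0839 (edgeR's QL test with BH adjustment).

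The paralog *Eif4ebp2*, which encodes the repressor 4E-BP2, lies on the minus strand of chromosome 10 from 61428491 to 61452661. It had 293, 255.7 and 236 CPM with vehicle and 203, 235 and 207 CPM with AG636. The groups did not overlap, but vehicle replicate 3 and AG636 replicate 2 were nearly equal (exact two-sided permutation p = 0.1). The log2 fold change was -0.28, with a 95% confidence interval from -0.56 to -0.01, and an adjusted p of 0.124 did not pass the threshold (edgeR's QL test with BH adjustment). *Rps6kb1*, on the minus strand of chromosome 11 from 86498871 to 86544805, encodes the S6 kinase that phosphorylates ribosomal protein S6. It had 102, 98.8 and 87.1 CPM with vehicle and 84.5, 104.96 and 85.5 CPM with AG636, and the groups overlapped. Its log2 fold change was -0.07, with an interval from -0.37 to 0.23 (adjusted p = 0.748, edgeR's QL test with BH adjustment). At its end it shares 155 exonic bases with the antisense-oriented *Rnft1*. This gene had 291 counts against 3105 for *Rps6kb1* and a log2 fold change of 0.35 (adjusted p = 0.376, edgeR's QL test with BH adjustment).

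Ratios of counts within a library do not depend on how libraries are scaled, and were taken for pairs of genes that act together or against each other. They were not tested, and since counts from the 3' end of 2 genes cannot be read as amounts of each, only the change of a ratio between groups is described. The ratio of *Eif4ebp1* to *Eif4ebp2* was 0.378, 0.373 and 0.385 in the vehicle libraries and 0.318, 0.324 and 0.292 in the AG636 libraries, lower in all 3 with AG636. *Eif4e*, the factor that both repressors bind, was itself downregulated, from 274 ± 17.8 to 189 ± 8.97 CPM (SD, n = 3, log2 fold change -0.53, adjusted p = 0.0115 by edgeR's QL test with BH adjustment). The summed counts of *Eif4ebp1* and *Eif4ebp2* over those of *Eif4e* were 1.43, 1.23 and 1.29 with vehicle and 1.39, 1.58 and 1.49 with AG636. This ratio overlapped between the groups, with a mean log2 difference of 0.18. The ratio of *Tsc1* to *Tsc2* was 0.905, 1.03 and 0.764 with vehicle and 1.27, 1.31 and 1.15 with AG636, higher in all AG636 libraries, although neither gene passed the threshold alone. The ratio of *Rictor*, the scaffold of mTORC2, to *Rptor* was 1.93, 1.82 and 1.86 with vehicle and 2.42, 2.40 and 2.54 with AG636, again with no overlap. Of single genes tested, 41.1% had groups without overlap, *Tsc2* among them, and no such share was taken for ratios. The exonic bases that *Tsc2* shares with *Pkd1* also bear on the ratio of *Tsc1* to *Tsc2*. The mean log2 differences were -0.28 for *Eif4ebp1* over *Eif4ebp2*, 0.48 for *Tsc1* over *Tsc2* and 0.39 for *Rictor* over *Rptor*, and none of these ratios changed sign when any 1 library was left out.

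**Figure D3:**
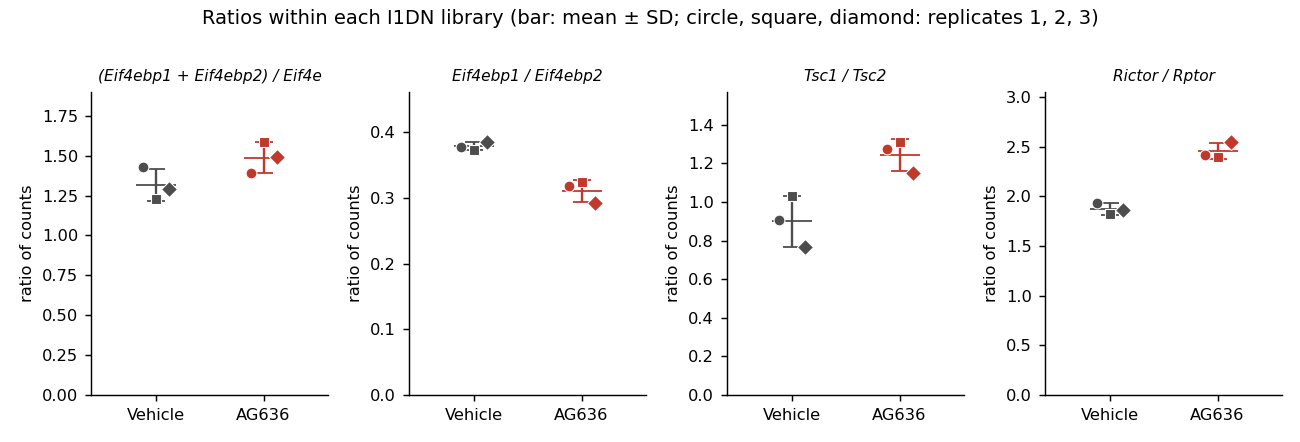
Ratio of counts within each library (y axes, from 0, no unit) for 4 pairs, in the 3 vehicle (grey) and 3 AG636 (red) libraries, with mean ± SD as bars. With vehicle and AG636, *Tsc1* over *Tsc2* was 0.900 ± 0.133 and 1.24 ± 0.0842, *Rictor* over *Rptor* 1.87 ± 0.0567 and 2.45 ± 0.0786 and *Eif4ebp1* over *Eif4ebp2* 0.379 ± 0.00582 and 0.311 ± 0.0168, all without overlap, while the summed 4E-BP counts over *Eif4e* overlapped.

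Around the 10 genes, 12 lists of 163 further genes were described in the same fit. Of these, 146 were tested, 21 were upregulated, 26 were downregulated and 99 did not pass the threshold, with a median log2 fold change of 0.07. Over all genes tested, 10.3% were upregulated and 11.0% were downregulated, with a median of 0.03. Among the other subunits and assembly factors of mTORC1 and mTORC2, 0 of 9 tested were upregulated and 3 were downregulated. The 3 were assembly factors of PIKK kinases: *Ruvbl1* fell from 145 ± 11.9 to 73.4 ± 5.44 CPM, *Ruvbl2* from 66.9 ± 5.98 to 37.4 ± 3.48 CPM and *Telo2* from 36.3 ± 4.69 to 19.97 ± 0.596 CPM (SD, n = 3), with adjusted p of 0.00254, 0.00570 and 0.00891 (edgeR's QL test with BH adjustment). The ATPases encoded by *Ruvbl1* and *Ruvbl2* also serve chromatin remodeling and ribosome biogenesis. The subunits *Mlst8*, *Akt1s1* and *Rictor* had log2 fold changes of -0.15, -0.36 and 0.31 and did not pass the threshold (adjusted p = 0.535, 0.349 and 0.133, edgeR's QL test with BH adjustment).

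Upstream of the complex, each list held 1 or 2 genes that passed the threshold, which 21.3% of all genes tested passed in either direction. In the list of the TSC complex, Rheb and stress inhibitors, 1 of 5 tested was upregulated and 0 downregulated. This was *Sesn1*, a p53-induced sestrin that rose from 24.0 ± 0.844 to 39.3 ± 1.78 CPM (SD, n = 3, log2 fold change 0.71, adjusted p = 0.0120 by edgeR's QL test with BH adjustment). *Sesn2*, which encodes another sestrin, and *Rheb* had log2 fold changes of 0.29 and -0.01 (adjusted p = 0.412 and 0.970, edgeR's QL test with BH adjustment). In the Rag GTPase, Ragulator and FLCN list 1 of 11 was downregulated, *Fnip2*, which encodes a partner of folliculin, with a log2 fold change of -0.90, and 10 did not pass the threshold. In the list of GATOR complexes, KICSTOR and amino acid sensors 1 of 13 was upregulated, the S-adenosylmethionine sensor *Samtor*, named *Bmt2* in the annotation, with a log2 fold change of 0.86. In the PI3K and AKT list 1 of 17 was upregulated and 1 downregulated. *Pik3ip1*, which encodes an inhibitor of PI3K, rose from 19.8 ± 3.41 to 52.4 ± 4.93 CPM (SD, n = 3, log2 fold change 1.41, adjusted p = 0.00247 by edgeR's QL test with BH adjustment). *Pik3r2*, a regulatory subunit of PI3K, fell by 1.08 on the log2 scale (adjusted p = 0.0123, edgeR's QL test with BH adjustment). In the AMPK and LKB1 list 1 of 9 was downregulated, *Prkag1*, a regulatory subunit of AMPK, with a log2 fold change of -0.50 and an adjusted p of 0.0440 (edgeR's QL test with BH adjustment). Each of *Fnip2* and *Prkag1* lost its call without vehicle replicate 1 or 2 or AG636 replicate 1 or 3, and *Pik3r2* lost it without AG636 replicate 3. The call of *Prkag1* was also lost when libraries were scaled by library size alone.

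Among the other substrates and effectors of mTORC1, 2 of 18 tested were upregulated and 5 were downregulated, against 10.3% and 11.0% of all genes tested. The 5 were *Eif4a1*, *Eif4g1*, *Eif4e*, *Larp1* and *Eif4b*, which bind the mRNA cap or act in initiation, with log2 fold changes of -0.80, -0.69, -0.53, -0.75 and -0.51. The upregulated genes were *Ulk1*, the kinase that starts autophagy, which rose from 29.9 ± 1.55 to 50.4 ± 5.90 CPM, and *Pdcd4*, an inhibitor of the helicase eIF4A, which rose from 79.5 ± 8.81 to 119 ± 8.95 CPM (SD, n = 3). *Rps6* and *Rps6kb2* had log2 fold changes of -0.23 and 0.01 (adjusted p = 0.161 and 0.965, edgeR's QL test with BH adjustment), and the counts of *Rps6* are uncertain where reads also match its pseudogenes. Without AG636 replicate 3, 2 of these 18 genes were downregulated, and without vehicle replicate 2 *Pdcd4* lost its call.

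Lists of genes that respond to ATF4, FOXO, p53, hypoxia-inducible factors and glucocorticoids were described because these regulators are known to act on *Ddit4*, the sestrins or the 4E-BP genes, or, for ATF4, downstream of mTORC1. In the list of ATF4 and its targets, largely of amino acid supply, 14 of 15 genes tested were downregulated and 0 upregulated. Of all genes tested, 11.0% were downregulated and 10.3% upregulated. The median log2 fold change of the ATF4 list was -0.99, against 0.03 over all genes tested. *Atf4* itself is counted here and fell from 376 ± 18.6 to 204 ± 39.0 CPM (SD, n = 3), so that 13 of 14 targets were downregulated. *Mthfd2* and *Shmt2*, of mitochondrial one-carbon metabolism, fell from 163 ± 16.6 to 67.1 ± 9.37 CPM and from 203 ± 12.6 to 102 ± 19.4 CPM, *Psat1*, of serine synthesis, from 257 ± 4.29 to 148 ± 7.81 CPM, and *Slc7a5*, a leucine transporter, from 94.1 ± 13.4 to 37.3 ± 11.1 CPM (SD, n = 3). Their adjusted p were 0.00202, 0.00411, 0.00298 and 0.00453 (edgeR's QL test with BH adjustment). Without AG636 replicate 3, 8 of the 15 were downregulated, while over all genes the number fell from 1222 of 11092 to 452 of 11221.

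In the list of FOXO genes and their targets, 8 of 18 tested were upregulated and 1 was downregulated, with a median log2 fold change of 0.71. *Ccng2*, which encodes a cyclin of arrested cells, rose from 7.78 ± 1.49 to 37.5 ± 6.87 CPM (SD, n = 3, log2 fold change 2.27, adjusted p = 0.00202 by edgeR's QL test with BH adjustment). *S1pr1*, *Txnip* and *Klf6* rose by 1.41, 1.17 and 1.11 on the log2 scale, and *Sod2*, a mitochondrial antioxidant enzyme, fell by 0.62, a call that was lost without AG636 replicate 1 or 3. *Foxo1*, *Foxo3* and *Foxo4*, which are counted in the list, did not pass the threshold, and *Foxo3* had 92.2 ± 7.28 CPM with vehicle and 124 ± 20.1 CPM with AG636 (SD, n = 3, adjusted p = 0.0598 by edgeR's QL test with BH adjustment). Of 11 p53 targets of stress response, 6 were upregulated and 0 downregulated, with a median of 0.86, and 3 were upregulated without AG636 replicate 3. *Trp53inp1* rose from 3.74 ± 0.972 to 20.1 ± 4.49 CPM (SD, n = 3, log2 fold change 2.41, adjusted p = 0.00203 by edgeR's QL test with BH adjustment). *Ccng1*, *Btg2* and *Sesn1* rose by 0.86, 1.14 and 0.71 on the log2 scale. Fewer genes passed the threshold in the remaining lists: 2 of 13 HIF targets were upregulated, *Ndrg1* and *Mxi1*, and 1 of 9 glucocorticoid-induced genes, *Tsc22d3*, with log2 fold changes of 0.70, 0.54 and 1.08. Over all genes tested 10.3% were upregulated, so these shares were near that of all genes. None of the HIF targets was called without vehicle replicate 1, AG636 replicate 1 or AG636 replicate 3. The medians of these lists were 0.29 and 0.45, and whether lists differ from each other was not tested.

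**Figure D4:**
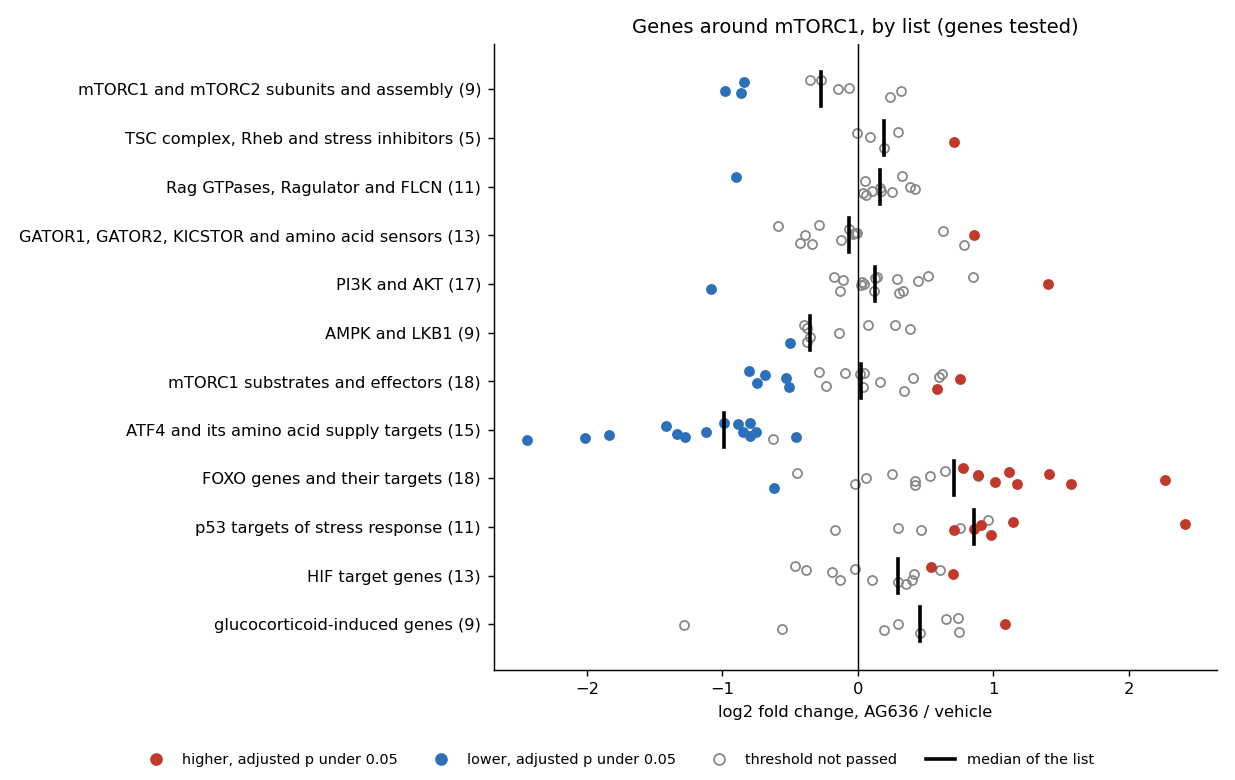
Log2 fold change of AG636 over vehicle (x axis) of each gene tested in the 12 lists around mTORC1 (rows, number tested in parentheses), with red and blue points for genes up- or downregulated at an adjusted p under 0.05 (edgeR), open points for the others and a bar at the median. In the ATF4 list 14 of 15 genes, *Atf4* itself included, lie to the left in blue, while red points make up 8 of 18 genes of the FOXO list and 6 of 11 p53 targets.

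The pattern over the 6 libraries was compared with that of each gene tested for the 4 genes that passed the threshold, by the root mean square difference of centred log2 CPM, and the 3 nearest genes are given as a description. Nearest to *Ddit4* were *Gm43323*, *Rbm47* and *Carns1*, at 0.154, 0.170 and 0.173 log2 units, and *Gm43323*, with 54 counts in all, lies within the bounds of *Rbm47* on chromosome 5. Nearest to *Sesn3* were *Gm47664*, *Cpt1a*, the carnitine palmitoyltransferase of fatty acid oxidation, and the pseudogene *Rps6-ps1*, at 0.0659, 0.0920 and 0.0984. Nearest to *Deptor*, and so also high in AG636 replicate 2, were the MHC class I gene *H2-T22*, the signaling adaptor *Gab2* and *Aoc2*, at 0.117, 0.121 and 0.149. Of these, *Gab2* and *Aoc2* did not pass the threshold (adjusted p = 0.0565 and 0.150, edgeR's QL test with BH adjustment). Nearest to *Eif4ebp1* were *Bms1*, a factor of ribosome biogenesis, *Gtf2f1*, a subunit of the general transcription factor TFIIF, and *Gde1*, at 0.0434, 0.0441 and 0.0463.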

How the data were processed

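RNA-seq libraries of sorted I1DN cells, 3 per group and 1 per mouse, were assigned to vehicle or AG636 by the submitters' labels. The authors deposited raw counts per gene without normalization. Libraries were made with QuantSeq, which reads the 3' end of polyadenylated RNA, so counts do not scale with transcript length. The submitters' processing notes name FastQC, cutadapt 1.9.1, HISAT2 2.0.4, featureCounts, Subread 1.5.0-p3 and mm10. The annotation release, the strand setting and the handling of reads with several matches are not given in the sources used here. Names were taken from GENCODE M21, which held 54723 of 54838 identifiers, 98.7% of them with the deposited bounds. No per-sample column was left unused.

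The test was the quasi-likelihood (QL) test of edgeR 4.0.16 in R 4.3.3, after filterByExpr (min.count 10, min.total.count 15) and TMM, with no block. A gene was called at an adjusted p under 0.05 (Benjamini-Hochberg, BH) over 11092 genes. The median standard error of log2 fold changes was 0.20. CPM use TMM-scaled library sizes, and single genes were also compared by an exact permutation test on log2(CPM + 0.5). Scripts were tested on simulated data.

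Named are the 10 genes, up to 4 genes per list and direction by lowest adjusted p among those called without overlap of the groups, 10 further genes whatever their values (*Mlst8*, *Rictor*, *Rheb*, *Sesn1*, *Sesn2*, *Akt1s1*, *Eif4e*, *Rps6*, *Rps6kb2*, *Foxo3*), and the 3 genes nearest to each called gene. *Eif4b*, *Atf4*, *Foxo1*, *Foxo4*, *Pkd1*, *Rnft1*, *Kit* and *Hoxa9* were named after their values were seen. The 10 genes and all lists were chosen with earlier results of these data known. 1 gene of these rules is not reported here and was left out of its list. *Kics2* could not be matched to the table. Exon overlaps were examined for the 10 genes only. Alternatives were DESeq2 1.42.0, limma-voom (limma 3.58.1), other scalings and filters, a replicate block, leaving out each library, an adjusted p under 0.01 and a fold change of at least 1.5.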

Additional observations from a re-analysis of the deposited data

How the results depend on the processing

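Under the 16 alternatives *Ddit4* and *Sesn3* were called in each, and *Mtor*, *Rptor*, *Tsc1*, *Tsc2*, *Eif4ebp2* and *Rps6kb1* in none. Leaving out 1 library left 2 to 3 of the 10 genes upregulated, *Deptor* being lost without any 1 vehicle library, and 0 to 1 downregulated. It left 14 to 23 of the pathway genes upregulated and 13 to 28 downregulated, against 21 and 26 with all libraries, the lowest without AG636 replicate 3. With an adjusted p under 0.01, 2 and 0 of the 10 genes and 7 and 12 of the pathway genes were up- and downregulated, and with a fold change of at least 1.5, chosen after seeing the data, 0 of the 10 genes were downregulated. Over all genes, 1146 up- and 1222 downregulated genes became 399 and 452 without AG636 replicate 3 and 231 and 325 with an adjusted p under 0.01. No call changed sign. The mean log2 difference of the ratios ranged over left-out libraries from 0.13 to 0.24 for the 4E-BP genes over *Eif4e*, -0.31 to -0.24 for *Eif4ebp1* over *Eif4ebp2*, 0.36 to 0.58 for *Tsc1* over *Tsc2* and 0.36 to 0.41 for *Rictor* over *Rptor*. With CPM by library size alone, 5 instead of 6 genes had groups without overlap. Deviations of same-numbered libraries from their group means correlated at r = -0.10, -0.22 and 0.29. Those of differently numbered libraries ranged from -0.49 to 0.47. With 3 libraries per group such correlations cannot decide whether the numbers pair the mice. A replicate block gave 3 and 1 calls among the 10 genes and 22 and 25 among the pathway genes. Counts of *Sesn3* were low, at 21 to 58 per library. The causes of these changes were not tested.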
